A study of Drosophila melanogaster with 12 samples.

Results

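The genes described here are 9 genes of the Hippo growth control pathway, *hpo*, *wts*, *sav*, *mats*, *yki*, *ex*, *Mer*, *kibra* and *sd*. They were matched by symbol or synonym in the annotation of the array probes, and 7 of the 9 have a probe, each with 1 probe, among 12142 genes with a probe in all. No probe was matched to *kibra*, which encodes an upstream scaffold protein, or to *sd*, which encodes the DNA-binding partner of Yki, and these genes were not analysed here. Wing imaginal discs, the larval epithelia from which wings form, were dissected from bromophenol blue-staged larvae of the third instar kept at 25 °C. *ash2* and *ash1* belong to the trithorax group, whose products keep genes in an active state. The question was how RNA levels in mutant discs compare with those of an isogenic line.

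The mutants were w1118;+;ash2-I1, w1118;+;ash2-112411 and w1118;+;ash1-22/ash1-22-F2A, called ash2-I1, ash2-112411 and ash1-22 below. The reference on every array was 1 pool of disc RNA from the w1118;+;+ isogenic line of the DrosDel collection. RNA of each allele was extracted 2 times, and every extraction was put on a dye-swapped pair of arrays, so there are 4 arrays for an allele and 12 arrays in all. All strains carry w1118, and by the study's methods chromosomes X, Y and 2 of the isogenic line were moved into the balanced mutant stocks. Chromosome 3, which carries *ash2* and *ash1*, was not moved, so the effect of an allele and of other variants on that chromosome cannot be told apart. Of the measured genes, *wts*, *sav* and *mats* lie on arm 3R, *hpo* and *yki* on 2R, *ex* on 2L and *Mer* on X, per the RefSeq table of Release 6. The *ash2* alleles differ in strength by the study's description, with ash2-I1 the stronger, and discs of the mutants are reduced in size. In such whole discs, fewer cells of a type and less RNA per cell cannot be told apart.

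The Hippo pathway is a chain of kinases that restrains organ growth in flies and mammals. In the fly wing disc the kinase Hpo, with its scaffold Sav, activates the kinase Wts, with its cofactor Mats, and Wts phosphorylates the transcriptional coactivator Yki and keeps it out of the nucleus. Ex, Mer and Kibra act at the apical cell cortex to switch the kinases on. Unphosphorylated Yki binds Sd on DNA and turns on genes for growth and survival, *ex* itself among them, so *ex* RNA is widely read as a measure of Yki activity.

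Each value given is a log2 ratio of the mutant over the pool, so a value below 0 means less RNA in the mutant. The deposited ratios are Cy5 over Cy3, so the sign was turned where the mutant RNA carried Cy3. The dye-swapped pair of each extraction was averaged, and 1 limma model was fitted to the 6 extractions, so n is 2 extractions for each allele. A gene is said to have fallen or risen at a Benjamini-Hochberg adjusted p under 0.05 across all probes tested in that allele, and is said to be called when it also changed over 1.5-fold, a log2 ratio of 0.58. The error given is the SE of the fit. The pool is 1 control sample shared by the alleles, and its own error is in no SE.

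The ash2-I1 arrays held 7542 to 8007 measured spots each, the ash2-112411 arrays 10441 to 11179 and the ash1-22 arrays 5804 to 10747. The authors scaled each set of 4 arrays on its own, and the median absolute deviation of the ratios was 0.187 to 0.258 on ash2-I1 arrays, 0.267 to 0.313 on ash2-112411 arrays and 0.133 to 0.170 on ash1-22 arrays. *ash2* itself gave −2.21, −2.0, −1.60 and −1.21 on the ash2-I1 arrays, −2.07, −1.47 and −1.48 on 3 ash2-112411 arrays, and 0.19 and 0.34 on 2 ash1-22 arrays. It was called lower in ash2-I1 (−1.75 ± 0.16, limma adjusted p = 0.000215) and in ash2-112411 (−1.62 ± 0.16, adjusted p = 0.000282). Where its probe lies relative to the lesions was not analysed here, and no probe was matched to *ash1*. Of the wing pouch markers *nub*, *rn*, *vg*, *Dll* and *dve*, 2 of 3 tested were called lower in ash2-I1 (log2 ratios −1.18 to −0.22). Called lower were 3 of 5 in ash2-112411 (−1.44 to −0.083) and 1 of 5 in ash1-22 (−0.67 to 0.070). The call in ash1-22 was *Dll* by its probe on 9 arrays. Its other probe, on 2 arrays, gave −0.18 ± 0.08 there (limma adjusted p = 0.191). The muscle genes *Mp20* and *Mlc1* rose in all 3 alleles, with log2 ratios of 1.82 to 2.04 in ash2-I1, 0.52 to 0.97 in ash2-112411 and 1.29 to 1.67 in ash1-22. Of the 5 hemocyte markers, 1 of 2 tested, *eater*, was called higher in ash2-112411 (0.60 ± 0.08) and none of 1 tested in ash2-I1 or of 3 in ash1-22. Of the hinge markers, 2 of 3 tested were called lower in ash2-I1, *Doc1* (−1.12 ± 0.17) and *zfh2* (−0.82 ± 0.08), with the list at −1.12 to −0.40. None of 2 was called in ash2-112411 or of 3 in ash1-22. In ash2-I1 the means with the mutant in Cy5 and in Cy3 lay apart. They were −1.46 and −0.18 for *zfh2*, 0.075 and −0.87 for *tsh*, and −0.88 and −1.36 for *Doc1*. Of the tracheal markers 1 of 3 tested, *btl*, was called higher in ash2-112411 (0.64 ± 0.09), and none of 3 in ash2-I1 or ash1-22. By its probe on 11 arrays *verm* rose by less than 1.5-fold in ash1-22 and ash2-I1 (0.53 each, limma adjusted p = 0.0423 and 0.0157). That probe gave −0.0029 ± 0.13 in ash2-112411. The *verm* probe on 8 arrays passed in all 3 alleles, over 1.5-fold in ash1-22 (0.88) and ash2-I1 (0.77) and under it in ash2-112411 (0.577). The *verm* probe on 10 arrays passed in ash1-22 (0.54) and ash2-112411 (0.33), with no test in ash2-I1. The body wall marker *eyg* was called lower in ash1-22 (−0.86 ± 0.08), 1 of 4 tested there, and no body wall marker was called in the *ash2* alleles. No adult muscle precursor or salivary gland marker was called in any allele. Extraction 1 of ash1-22 stood apart in the fat body markers, with *Lsp2* at 4.18, against −0.35 in extraction 2, and *Fbp1* at 2.26, against −0.13. *Fbp2* gave 4.05 in extraction 1 and had no value in extraction 2. None of these markers passed in any allele, and they ran from −1.76 to 0.44 in the *ash2* alleles. Where a pathway gene named below fell in ash1-22, its result without extraction 1 is given too. Where that result is a ratio only, it rests on 1 extraction and does not show that the fall passed. The part of these tissues in the results below was not tested.

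*hpo*, *mats* and *yki* lay below the pool on every array, and their ratios were lowest in ash2-112411, although on a common scale for all arrays *yki* was lower in ash1-22 (−0.48) than in ash2-112411 (−0.39). In ash2-112411, *hpo* and *mats* were called lower, *yki* and *sav* fell by less than 1.5-fold, and *ex* rose by just under 1.5-fold. In ash2-I1, *hpo*, *mats* and *ex* fell by less than 1.5-fold, although the fall of *ex* was seen in 1 dye orientation only. In ash1-22 only *hpo* fell, also by less than 1.5-fold. On the common scale *mats* and *yki* passed there too, below 0, and *ex* passed above 0. *wts* and *Mer* passed in no allele in which they were tested.

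Those counts stand beside the following shares of all genes tested. In ash2-112411, 2 of the 6 Hippo pathway genes tested were called lower, against 8.60% of all genes, and 4 of 6 fell at the adjusted p alone, against 26.3%. None was called higher there (8.36% of all genes) and 1 of 6 rose at the adjusted p alone (24.0%). In ash2-I1, 0 of 7 were called lower (6.68% of all genes) or higher (5.45%), 3 of 7 fell at the adjusted p alone (19.8%) and 0 rose (17.9%). In ash1-22, 0 of 7 were called lower (1.17%) or higher (1.78%), 1 of 7 fell at the adjusted p alone (6.51%) and 0 rose (4.86%). At an unadjusted p under 0.05 in the limma fit, 4 of 7 were lower in ash2-I1 (23.7% of all genes tested) and 1 higher (22.7%), and 3 of 7 were lower in ash1-22 (16.6%) and 1 higher (13.3%). The tested Hippo pathway genes had a median log2 ratio of −0.26 in ash2-I1 against 0.025 over all genes tested, −0.42 in ash2-112411 against −0.0012, and −0.15 in ash1-22 against 0.0082. Since all alleles share 1 pool, a departure of the pool itself would move the 3 alleles together.

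**Figure D1:**
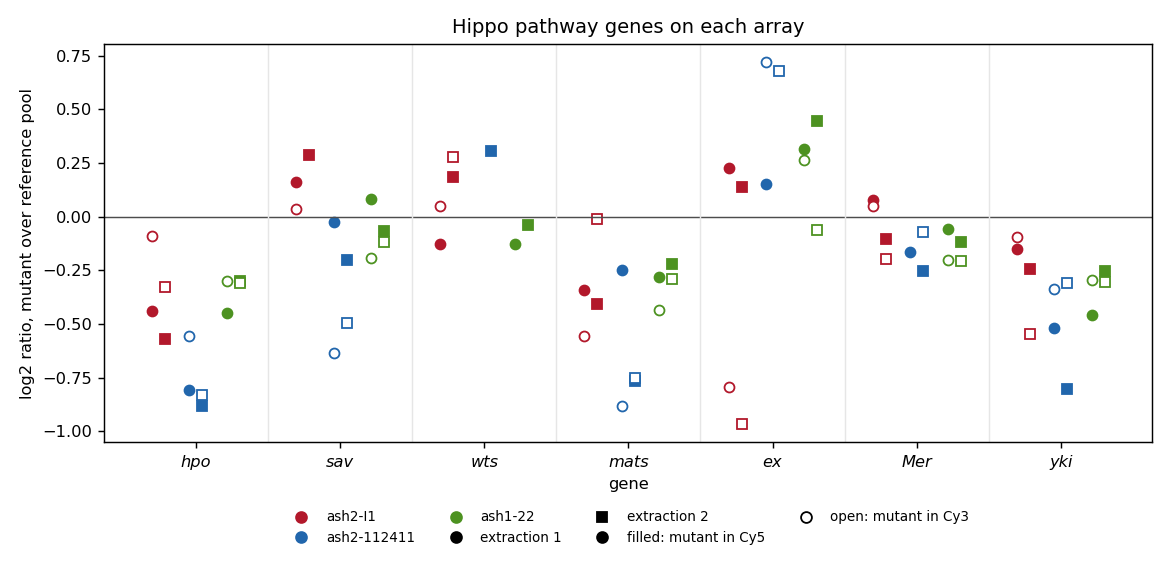
Log2 ratio of mutant over pool (vertical axis) on every array that measured each of the 7 genes (horizontal axis), with 1 colour per allele, circles for extraction 1, squares for extraction 2, filled symbols for the mutant in Cy5 and open symbols for the mutant in Cy3. All points of *hpo*, *mats* and *yki* lie below 0, and the 2 open points of *ex* in ash2-I1 lie far below its 2 filled points.

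*hpo* encodes the kinase that gives the pathway its name and starts the cascade. Its log2 ratios in ash2-I1 were −0.44 (Cy5) and −0.091 (Cy3) for extraction 1 and −0.57 (Cy5) and −0.33 (Cy3) for extraction 2, where the dye named is that of the mutant RNA. In ash2-112411 they were −0.81 (Cy5) and −0.56 (Cy3) for extraction 1 and −0.88 (Cy5) and −0.83 (Cy3) for extraction 2. In ash1-22 they were −0.45 (Cy5) and −0.30 (Cy3) for extraction 1 and −0.30 (Cy5) and −0.31 (Cy3) for extraction 2. All 12 arrays lay below 0. The highest ash2-112411 array overlapped the lowest ash2-I1 array and lay below every ash1-22 array. The fitted ratio was −0.77 ± 0.08 in ash2-112411 (limma adjusted p = 0.000368), which is a fall by 41.4% relative to the pool. It was −0.36 ± 0.08 in ash2-I1 (adjusted p = 0.0112) and −0.34 ± 0.08 in ash1-22 (adjusted p = 0.0397). Without extraction 2 of ash2-I1 its fall there no longer passed (−0.27, adjusted p = 0.105), and without either extraction of ash1-22 the fall in that allele no longer passed (adjusted p = 0.405 without extraction 1 and 0.262 without extraction 2). The fall in ash2-112411 passed under all 16 alternatives, with ratios of −0.86 to −0.60.

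*sav* encodes the scaffold that holds Hpo and Wts together. In ash2-I1 its arrays gave 0.16 (Cy5) and 0.034 (Cy3) for extraction 1 and 0.29 (Cy5) for extraction 2, with no value on the fourth array. In ash2-112411 they gave −0.024 (Cy5) and −0.64 (Cy3) for extraction 1 and −0.20 (Cy5) and −0.50 (Cy3) for extraction 2. In ash1-22 they gave 0.083 (Cy5) and −0.19 (Cy3) for extraction 1 and −0.066 (Cy5) and −0.12 (Cy3) for extraction 2. Every ash2-I1 array was above 0 and every ash2-112411 array below it, so those groups did not overlap, while the ash1-22 arrays fell on both sides. *sav* fell in ash2-112411 (−0.34 ± 0.07, limma adjusted p = 0.00696) and did not pass in ash2-I1 (0.19 ± 0.07, adjusted p = 0.0782) or in ash1-22 (−0.074 ± 0.073, adjusted p = 0.526). In ash2-112411 the arrays with the mutant in Cy3 averaged −0.57 and those in Cy5 −0.11, and with the Cy5 arrays alone the fall did not pass (adjusted p = 0.347). It was also lost without extraction 2 of that allele (adjusted p = 0.0639).

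*wts* encodes the kinase that acts directly on Yki, and it was measured on 7 of the 12 arrays. In ash2-I1 it gave −0.13 (Cy5) and 0.048 (Cy3) for extraction 1 and 0.19 (Cy5) and 0.28 (Cy3) for extraction 2. The only ash2-112411 array with a value gave 0.31, and *wts* was not tested in that allele. The 2 ash1-22 arrays with a value, both with the mutant in Cy5, gave −0.13 for extraction 1 and −0.040 for extraction 2. The values of ash2-I1 and ash1-22 overlapped. The ratio was 0.095 ± 0.089 in ash2-I1 (limma adjusted p = 0.451) and −0.084 ± 0.089 in ash1-22 (adjusted p = 0.562), each about the size of its SE.

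*mats* encodes the cofactor of Wts and followed the same order of alleles as *hpo*. In ash2-I1 it gave −0.34 (Cy5) and −0.56 (Cy3) for extraction 1 and −0.41 (Cy5) and −0.013 (Cy3) for extraction 2. In ash2-112411 it gave −0.25 (Cy5) and −0.88 (Cy3) for extraction 1 and −0.76 (Cy5) and −0.75 (Cy3) for extraction 2. In ash1-22 it gave −0.28 (Cy5) and −0.44 (Cy3) for extraction 1 and −0.22 (Cy5) and −0.29 (Cy3) for extraction 2. All 12 arrays were below 0, and 1 ash2-112411 array, that of extraction 1 with the mutant in Cy5, lay within the values of the other two alleles. *mats* was called lower in ash2-112411 (−0.66 ± 0.09, limma adjusted p = 0.000888) and fell in ash2-I1 (−0.33 ± 0.09, adjusted p = 0.0215). It did not pass in ash1-22 (−0.31 ± 0.09, adjusted p = 0.0660), although the ratio there was close to that in ash2-I1. On a common scale for all arrays it passed in ash1-22 (−0.45, adjusted p = 0.00920). The fall in ash2-112411 passed the adjusted p under all 16 alternatives (−0.82 to −0.50). It was under 1.5-fold on a common scale for all arrays (−0.50), with the Cy5 arrays alone (−0.51) and without extraction 2 of ash2-112411 (−0.57). The fall in ash2-I1 did not pass without extraction 1 of that allele (−0.21, adjusted p = 0.203).

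*yki* encodes the coactivator that the kinases hold back. In ash2-I1 it gave −0.15 (Cy5) and −0.093 (Cy3) for extraction 1 and −0.24 (Cy5) and −0.55 (Cy3) for extraction 2. In ash2-112411 it gave −0.52 (Cy5) and −0.34 (Cy3) for extraction 1 and −0.81 (Cy5) and −0.31 (Cy3) for extraction 2. In ash1-22 it gave −0.46 (Cy5) and −0.30 (Cy3) for extraction 1 and −0.25 (Cy5) and −0.31 (Cy3) for extraction 2. All 12 arrays were below 0, and the 3 alleles overlapped. *yki* fell in ash2-112411 (−0.49 ± 0.09, limma adjusted p = 0.00289), a change of less than 1.5-fold, and passed there under all 16 alternatives, over 1.5-fold only with the Cy5 arrays alone (−0.66). It missed the threshold narrowly in ash2-I1 (−0.26 ± 0.09, adjusted p = 0.0516) and in ash1-22 (−0.33 ± 0.09, adjusted p = 0.0535), where 4 and 6 of the 16 alternatives passed. Of the 7 genes, those below 0 on all 12 arrays were *hpo*, *mats* and *yki*, also the only 3 measured on all 12. Of all genes measured on 12 arrays, 12.8% were below 0 on every one.

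**Figure D2:**
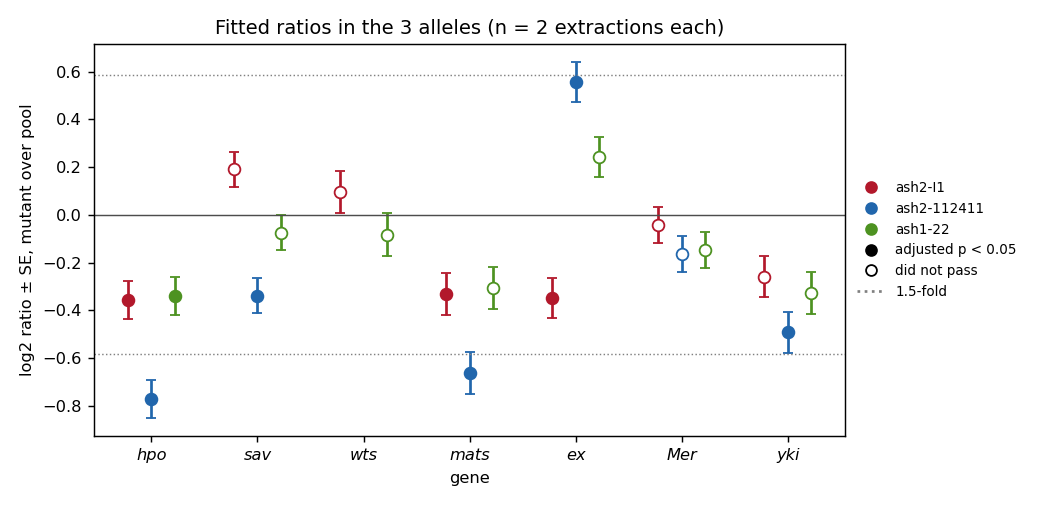
Fitted log2 ratio with its SE (vertical axis, n = 2 extractions per allele) for the 7 genes (horizontal axis) in the 3 alleles, with filled points for an adjusted p under 0.05 and dotted lines at 1.5-fold. Only *hpo* and *mats* in ash2-112411 pass below the lower dotted line, and *ex* in ash2-112411 sits just under the upper line at 0.56.

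*ex* encodes a cortical adaptor that activates the kinases and is also a target of Yki. In ash2-I1 it gave 0.23 (Cy5) and −0.79 (Cy3) for extraction 1 and 0.14 (Cy5) and −0.97 (Cy3) for extraction 2. In ash2-112411 it gave 0.15 (Cy5) and 0.72 (Cy3) for extraction 1 and 0.68 (Cy3) for extraction 2, which had no value with the mutant in Cy5. In ash1-22 it gave 0.31 (Cy5) and 0.26 (Cy3) for extraction 1 and 0.44 (Cy5) and −0.061 (Cy3) for extraction 2. In ash2-I1 both Cy5 arrays lay above 0 and both Cy3 arrays far below it, so the sign of the ratio followed the dye in each extraction. All 3 ash2-112411 arrays lay above 0, and there the Cy3 arrays were the higher ones.

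The fit gave a rise of *ex* in ash2-112411 (0.56 ± 0.08, limma adjusted p = 0.00147), a fall in ash2-I1 (−0.35 ± 0.08, adjusted p = 0.0145) and 0.24 ± 0.08 in ash1-22 (adjusted p = 0.109). On a common scale for all arrays *ex* passed in ash1-22 as well (0.38, adjusted p = 0.0142). The SE between extractions does not contain a dye difference that repeats in both. With the mutant in Cy5 alone the ash2-I1 ratio was 0.18 (adjusted p = 0.152), and with the mutant in Cy3 alone it was −0.88 (adjusted p = 0.000118). With the 4 arrays as replicates, neither the value in ash2-I1 (adjusted p = 0.189) nor that in ash2-112411 (0.52, adjusted p = 0.0776) passed. The fall in ash2-I1 was also lost when either of its extractions was left out (adjusted p = 0.0508 without extraction 1 and 0.120 without extraction 2). For *ex* the Cy5 mean minus the Cy3 mean came to 1.06 for ash2-I1, −0.55 for ash2-112411 and 0.28 for ash1-22. A dye difference at least that large was found in 1.53% of genes for ash2-I1, 20.4% for ash2-112411 and 14.6% for ash1-22.

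**Figure D3:**
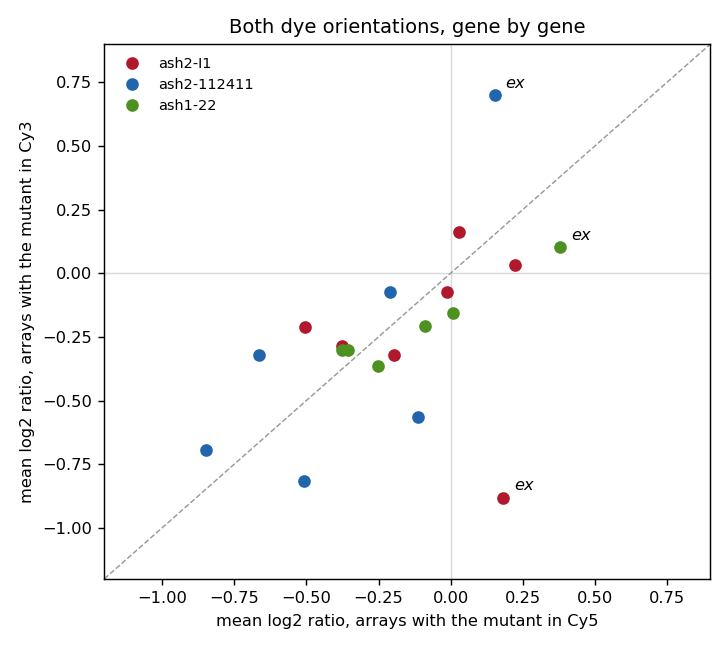
Mean log2 ratio on arrays with the mutant in Cy3 (vertical axis) against the mean on arrays with the mutant in Cy5 (horizontal axis), 1 point per gene and allele measured in both, with the dashed line where both agree and the points of *ex* labelled. *ex* in ash2-I1 stands at 0.18 and −0.88, farthest from the dashed line, and *ex* in ash2-112411 at 0.15 and 0.70.

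*Mer* encodes the fly Merlin, a cortical partner of Ex and Kibra. In ash2-I1 it gave 0.077 (Cy5) and 0.052 (Cy3) for extraction 1 and −0.10 (Cy5) and −0.20 (Cy3) for extraction 2. In ash2-112411 it gave −0.16 (Cy5) for extraction 1 and −0.25 (Cy5) and −0.073 (Cy3) for extraction 2. In ash1-22 it gave −0.060 (Cy5) and −0.20 (Cy3) for extraction 1 and −0.12 (Cy5) and −0.21 (Cy3) for extraction 2. The 3 alleles overlapped and every value stayed between −0.25 and 0.077. *Mer* had ratios of −0.044 ± 0.076 in ash2-I1 (limma adjusted p = 0.689), −0.16 ± 0.08 in ash2-112411 (adjusted p = 0.112) and −0.15 ± 0.08 in ash1-22 (adjusted p = 0.231), and passed under none of the alternatives.

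The alleles were then set against each other, which removes the shared pool. The genes that differed were *hpo*, *sav* and *ex*. Between ash2-I1 and ash2-112411 3 of 6 genes differed, against 32.1% of all genes tested. Between ash2-I1 and ash1-22 1 of 7 differed, against 23.1%. Between ash2-112411 and ash1-22 1 of 6 differed, against 27.1%. With so few genes, these counts say nothing about the pathway as a whole.

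*hpo* was higher in ash2-I1 than in ash2-112411 by 0.41 ± 0.11 (limma adjusted p = 0.0310) and lower in ash2-112411 than in ash1-22 by a difference of −0.43 ± 0.11 (adjusted p = 0.0315). ash2-I1 and ash1-22 were not told apart, with a difference of −0.018 and a 95% interval of −0.28 to 0.25. These *hpo* differences depended on the scale of the arrays. With every array brought to a common scale, the difference was 0.24 between ash2-I1 and ash2-112411 (adjusted p = 0.191) and −0.093 between ash2-112411 and ash1-22 (adjusted p = 0.640). The first was also lost without extraction 1 of ash2-I1 (adjusted p = 0.120), extraction 2 of ash2-112411 (0.148) or either extraction of ash1-22 (0.0594 each), and the second without extraction 2 of ash2-112411 (0.147) or either extraction of ash1-22 (0.114 without extraction 1 and 0.178 without extraction 2). On the authors' scale *hpo* was lowest in ash2-112411, with ash2-I1 and ash1-22 not told apart. On the common scale its ratios were −0.60 in ash2-112411, −0.50 in ash1-22 and −0.35 in ash2-I1.

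*sav* was higher in ash2-I1 than in ash2-112411 by 0.53 ± 0.10 (limma adjusted p = 0.0107). This difference passed in 12 of the 14 alternatives that gave a value, with sizes of 0.34 to 0.62, and was lost with the Cy5 arrays alone (adjusted p = 0.0989) and without extraction 2 of ash2-112411 (0.0523). ash1-22 lay between the *ash2* alleles and passed against neither, with intervals of 0.023 to 0.51 for ash2-I1 minus ash1-22 and −0.51 to −0.023 for ash2-112411 minus ash1-22.

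*ex* was lower in ash2-I1 than in ash2-112411 by a difference of −0.91 ± 0.12 (limma adjusted p = 0.00361), and lower in ash2-I1 than in ash1-22 by −0.59 ± 0.12 (adjusted p = 0.0125). The first passed in all 14 alternatives that gave a value, and the Cy5 arrays alone gave none, since only 1 ash2-112411 array with the mutant in Cy5 had a value. That array, at 0.15, lay between the 2 Cy5 arrays of ash2-I1 at 0.23 and 0.14, so with this dye the alleles overlapped. With the Cy3 arrays alone the difference was −1.58. The second difference was −0.20 on the Cy5 arrays (adjusted p = 0.293) and −0.98 on the Cy3 arrays. It was lost with the 4 arrays as replicates (adjusted p = 0.160) and without either extraction of ash1-22 (0.0924 without extraction 1 and 0.0626 without extraction 2).

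For *mats* the difference of ash2-I1 minus ash2-112411 was 0.33 (95% interval 0.041 to 0.62, limma adjusted p = 0.0770) and that of ash2-112411 minus ash1-22 was −0.36 (−0.65 to −0.065, adjusted p = 0.0707). Neither passed. For *yki* the largest was 0.23 for ash2-I1 minus ash2-112411 (−0.054 to 0.52, adjusted p = 0.181), for *Mer* 0.12 in the same contrast (−0.13 to 0.37, adjusted p = 0.423), and for *wts* only ash2-I1 minus ash1-22 could be tested, at 0.18 (−0.13 to 0.48, adjusted p = 0.366).

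**Figure D4:**
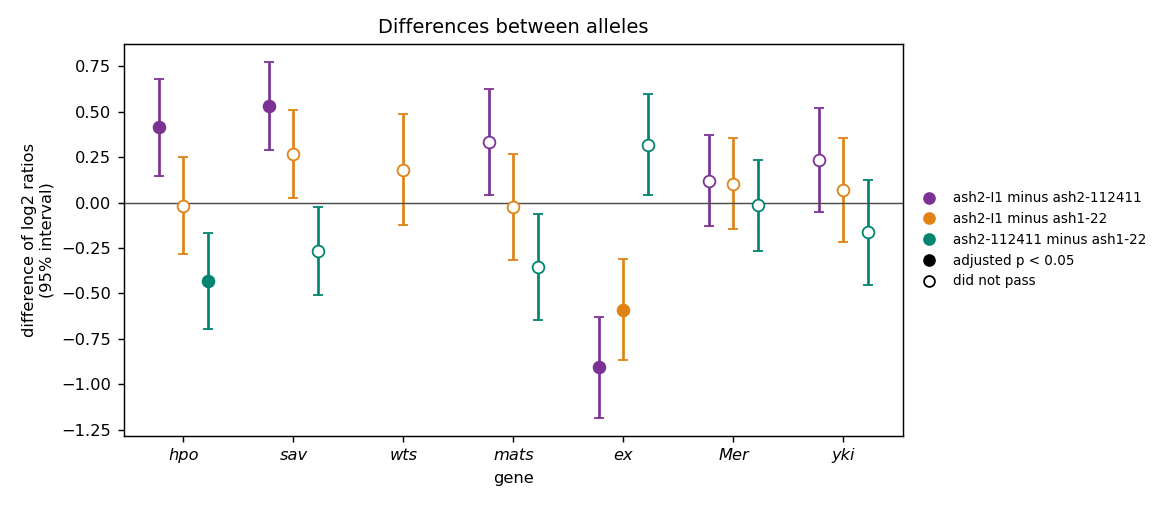
Difference of log2 ratios between alleles with its 95% interval (vertical axis) for each gene (horizontal axis), with 1 colour per contrast and filled points for an adjusted p under 0.05. The 5 filled points are 2 of *hpo*, 1 of *sav* and 2 of *ex*, the lowest being *ex* for ash2-I1 minus ash2-112411 at −0.91.

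Among the 7 genes, *hpo* had the log2 ratio farthest from 0 in each allele. The genes nearest to its pattern over the 6 extractions were *grnd*, *Hem* and *PIG-B*, among 5432 genes measured in all 6. Likeness was the root mean square difference of the log2 ratios, which was 0.036 for *grnd*, 0.048 for *Hem* and 0.052 for *PIG-B*. *grnd* encodes a receptor for tumour necrosis factor, *Hem* a subunit of an actin regulatory complex and *PIG-B* an enzyme of membrane anchor synthesis. Their extraction ratios ran over −0.82 to −0.23 for *grnd*, −0.82 to −0.19 for *Hem* and −0.88 to −0.27 for *PIG-B*, all below 0.

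Other genes of the pathway were called lower mostly in ash2-112411. Over 5 lists holding 53 genes, of which 43 have a probe, 13 of 40 tested were called lower in ash2-112411 (8.60% of all genes) and 0 higher (8.36%). In ash2-I1, 4 of 37 were called lower (6.68%) and 1 higher (5.45%), counts not far from those shares. At the adjusted p alone 17 of 37 fell in ash2-I1 (19.8%) and 2 rose (17.9%). By the same measure 23 of 40 fell in ash2-112411 (26.3%) and 1 rose (24.0%). In ash1-22, 0 of 37 were called lower (1.17%) or higher (1.78%), 7 fell (6.51%) and 1 rose (4.86%) at the adjusted p alone, and 8 were lower (16.6%) and 2 higher (13.3%) at an unadjusted p under 0.05 in limma. The median log2 ratio of the lists was −0.21 for ash2-I1 against 0.025 over all genes tested, −0.43 for ash2-112411 against −0.0012, and −0.083 for ash1-22 against 0.0082. These shares and medians over all genes are also those against which each list below is to be read. On a common scale for all arrays the count of lower calls in ash2-112411 was 3 and that in ash1-22 was 2. Over all genes, lower calls on that scale went from 838 to 395 in ash2-112411 and from 95 to 326 in ash1-22. The lists share some genes, and like the 9 genes above they were chosen with earlier results of these data known.

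The Fat branch runs from the atypical cadherins Fat and Ds at the cell surface to the kinase cascade. Of its 9 genes, 1 of 7 tested was called lower in ash2-112411 (8.60% of all genes), 0 of 5 in ash2-I1 (6.68%) and 0 of 6 in ash1-22 (1.17%), and 0 were called higher (8.36%, 5.45% and 1.78% in the same order), which is near the shares of all genes. The called gene was *lft*, which encodes a stabilizer of these cadherins, at −0.75 ± 0.08 in ash2-112411 (limma adjusted p = 0.000346). It fell by less than 1.5-fold in ash2-I1 (−0.48 ± 0.08) and in ash1-22 (−0.35 ± 0.08). Without extraction 1 of ash1-22 its ratio in that allele, from extraction 2 alone, was −0.33. The list medians were −0.11 for ash2-I1, −0.42 for ash2-112411 and −0.011 for ash1-22.

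Regulators at the apical cortex and the cell junctions included 2 genes called lower in both *ash2* alleles, *ed* and *Tao*. Of the 14 genes, 5 of 13 tested were called lower in ash2-112411 (8.60% of all genes), 2 of 13 in ash2-I1 (6.68%) and 0 of 14 in ash1-22 (1.17%), with none called higher (8.36%, 5.45% and 1.78%), and the medians were −0.22 for ash2-I1, −0.43 for ash2-112411 and −0.089 for ash1-22. *ed*, which encodes a junctional adhesion protein that binds Sav, was called lower in ash2-112411 (−0.95 ± 0.08) and ash2-I1 (−0.72 ± 0.08), and gave −0.094 ± 0.084 in ash1-22. *Tao*, the kinase that activates Hpo, was called lower in ash2-I1 (−0.78 ± 0.09, limma adjusted p = 0.000615) and ash2-112411 (−0.77 ± 0.09, adjusted p = 0.000533), and fell by less than 1.5-fold in ash1-22 (−0.37 ± 0.09). *alpha-Cat*, for the actin-binding catenin of adherens junctions, was called lower in ash2-112411 (−0.69 ± 0.08). It fell by less than 1.5-fold in ash2-I1 (−0.50 ± 0.08) and ash1-22 (−0.34 ± 0.08). Without extraction 1 of ash1-22 the ratios in that allele, from extraction 2 alone, were −0.30 for *alpha-Cat* and −0.27 for *Tao*. *crb*, for the apical determinant that binds Ex, fell by less than 1.5-fold in ash2-I1 (−0.37 ± 0.09) and gave −0.15 ± 0.09 in ash1-22. It was called lower in ash2-112411 (−0.61 ± 0.09). *l(2)gl*, a basolateral polarity gene, was called lower there too (−0.62 ± 0.09) by the probe measured on 9 arrays, while its other probe, on 7 arrays, gave 0.28 ± 0.11 (adjusted p = 0.0767), so its probes disagree.

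Inhibitors of the kinases, mostly subunits of the STRIPAK phosphatase complex that dephosphorylates Hpo, had 1 of 4 tested genes called lower in ash2-112411 (8.60% of all genes), 0 of 4 in ash2-I1 (6.68%) and 0 of 4 in ash1-22 (1.17%), with none called higher (8.36%, 5.45% and 1.78%). With 4 genes tested, 1 call is too few to read against a share. The called gene was *Mob4* (−0.60 ± 0.09, limma adjusted p = 0.00134). It gave −0.099 ± 0.089 in ash2-I1 and −0.16 ± 0.09 in ash1-22. The list medians were −0.069 for ash2-I1, −0.49 for ash2-112411 and −0.10 for ash1-22.

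Nuclear partners of Yki and Sd had 5 of 11 tested genes called lower in ash2-112411 (8.60% of all genes), 2 of 11 in ash2-I1 (6.68%) and 0 of 9 in ash1-22 (1.17%). None was called higher in ash2-112411 (8.36%) or ash1-22 (1.78%), and 1 was in ash2-I1 (5.45%). The medians were −0.35 for ash2-I1, −0.46 for ash2-112411 and −0.16 for ash1-22. *vg*, for the wing selector that binds Sd and a wing pouch marker, was called lower in ash2-I1 (−1.10 ± 0.06, limma adjusted p = 6.46e-05) and ash2-112411 (−0.81 ± 0.06), with −0.25 ± 0.06 in ash1-22 (adjusted p = 0.0510). *Trl*, which encodes GAGA factor, was called lower in ash2-I1 by its probe on 12 arrays (−1.09 ± 0.08). Its other probe, on 10 arrays, gave −0.33 ± 0.13 there (adjusted p = 0.0841). In ash1-22 *Trl* fell by less than 1.5-fold by the probe on 12 arrays (−0.38 ± 0.08), while the other gave 0.13 ± 0.13. Without extraction 1 of ash1-22 the ratio of the first probe was −0.45, from extraction 2 alone. *Wbp2*, for a coactivator that binds Yki, was the gene called higher, at 0.78 ± 0.11 in ash2-I1. It gave 0.20 ± 0.11 in ash2-112411 and 0.11 ± 0.11 in ash1-22. *Hcf*, for a chromatin cofactor, was called lower in ash2-112411 (−0.71 ± 0.09). Called lower there too were *mor* (−0.69 ± 0.08), a subunit of the Brahma remodelling complex, and *mask* (−0.62 ± 0.11), a cofactor of Yki. In ash2-I1 each fell by less than 1.5-fold, *Hcf* at −0.38 ± 0.09, *mor* at −0.32 ± 0.08 and *mask* at −0.35 ± 0.11. In ash1-22 *mor* fell by less than 1.5-fold (−0.56 ± 0.08), with means of −0.998 (Cy5) and −0.13 (Cy3). Without extraction 1 its ratio there was −0.66, from extraction 2 alone. *Hcf* gave −0.082 ± 0.088 and *mask* −0.23 ± 0.11 in ash1-22.

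Reported targets of Yki and Sd had 3 of 8 tested genes called lower in ash2-112411 (8.60% of all genes), 1 of 7 in ash2-I1 (6.68%) and 0 of 7 in ash1-22 (1.17%), and none was called higher (8.36%, 5.45% and 1.78%). The count in ash2-I1 is near its share. The called genes were *vg* and *crb*, given above, and *shg*, which encodes E-cadherin. *shg* was called lower in ash2-112411 (−0.95 ± 0.12, limma adjusted p = 0.000770) and gave −0.21 ± 0.12 in ash1-22. In ash2-I1 it fell by less than 1.5-fold (−0.40 ± 0.12), with extractions at −0.14 and −0.66. That fall was seen with the mutant in Cy5 (−0.86) and not in Cy3 (0.057). It did not pass on a common scale for all arrays (−0.38, adjusted p = 0.0544) or with the 4 arrays as replicates (adjusted p = 0.109). The medians were −0.37 for ash2-I1, −0.39 for ash2-112411 and −0.15 for ash1-22. In ash2-112411 *ex*, a further target, was on the other side of 0, at 0.56, and *CycE* gave 0.19 ± 0.07 (adjusted p = 0.0693). In ash2-I1 the list ran from −1.10 for *vg* to 0.56 for *dlp*, a glypican gene that rose by less than 1.5-fold. *dlp* fell by less than 1.5-fold in ash2-112411 (−0.35 ± 0.10, limma adjusted p = 0.0241) and gave −0.19 ± 0.10 in ash1-22.

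**Figure D5:**
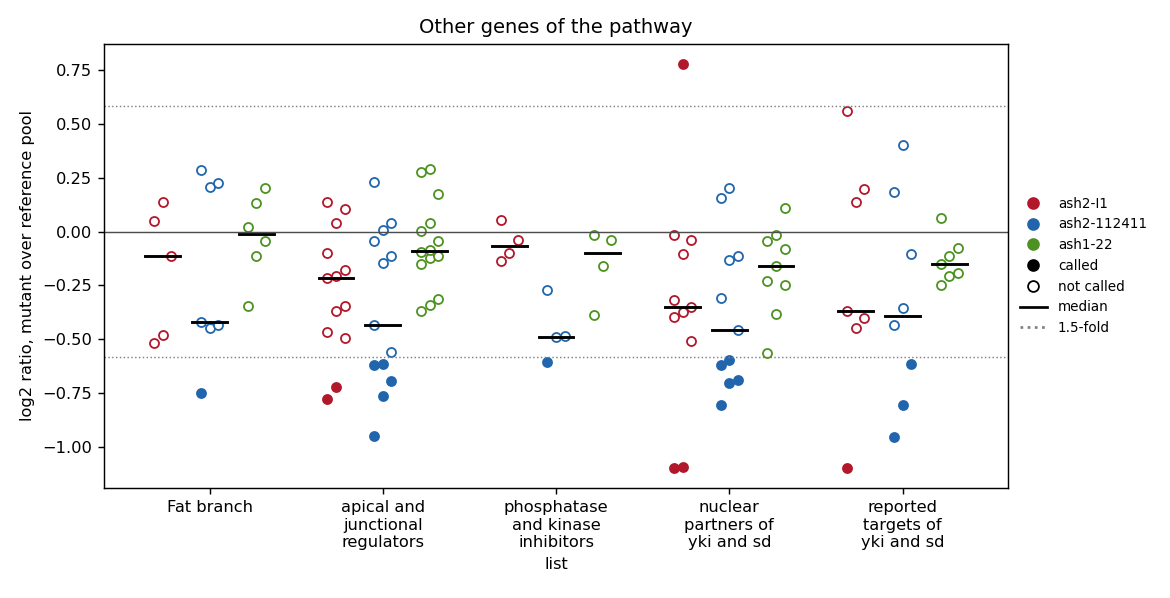
Log2 ratio of mutant over pool (vertical axis) of each tested gene of 5 pathway lists (horizontal axis) in the 3 alleles, with filled points for called genes, black bars for list medians and dotted lines at 1.5-fold. Filled points lie below the lower dotted line, except *Wbp2* in ash2-I1 at 0.78, and ash1-22 has no filled point.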

How the data were processed

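The deposited table gives, for 16416 spots on 12 dual-channel arrays, the authors' log2 value of Cy5 over Cy3. By the methods, GenePix quantification was followed by a filter on spot quality, normexp background correction, OLIN normalization inside each array and a MAD (median absolute deviation) scaling that used each allele's 4 arrays on their own. Signal over background cannot be recovered from these values. The genome build of the probes is not given in the sources used here, so no positions are printed.

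Ratios were turned to mutant over pool by the dyes in the labels. A model of 1 mean per allele was fitted to the 6 extractions with limma 3.58.1 (R 4.3.3; 11610 probes) and was tested on simulated data. Left out were 101 probes with more than 1 gene and 3151 spots without an entry in the annotation. Both extractions of an allele needed at least 1 array with a value for a test, and the probe present on most arrays stands for a gene. Where 1 array alone gives a value, dye bias is not cancelled.

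The 9 genes and all lists were chosen with earlier results of these data known. Named are the 9 genes, the genes of each list called in at least 1 allele (at most 6, by largest ratio), *ash2* and *ash1*, and the 3 genes nearest to the member with the largest ratio. *CycE*, *dlp* and the marker genes given with values were named after their values were seen. No set test was run.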

Additional observations from a re-analysis of the deposited data

Results flagged for a closer look

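In ash1-22 the lowest of the 4 arrays for *hpo*, at −0.45, stood apart from the other 3 by a gap large against the whole range, and so did the lowest array for *Hcf*, at −0.13. Among the 52 sets of 4 arrays examined, 2 stood apart, and chance alone gives about 1 in 20.

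Differences between alleles passed an adjusted p under 0.05 in limma for 5 of 19 tested. *hpo* differed by 0.41 for ash2-I1 minus ash2-112411 and by −0.43 for ash2-112411 minus ash1-22. *sav* differed by 0.53 for ash2-I1 minus ash2-112411. *ex* differed by −0.91 for ash2-I1 minus ash2-112411 and by −0.59 for ash2-I1 minus ash1-22.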

How the results depend on the processing

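Of the ratios of the 7 genes, 275 of the values under an alternative kept direction and side of the threshold, 18 newly passed, 15 no longer passed and 4 reversed. With the 4 arrays as replicates, 2 list genes were called higher in ash2-I1 and 0 Hippo pathway genes differed between ash2-I1 and ash1-22. On a common scale 1 Hippo pathway gene and 3 list genes were called lower in ash2-112411, and 2 list genes in ash1-22. Lower calls over all genes were then 395 in ash2-112411 and 326 in ash1-22, against 838 and 95 without that scaling. With it 0 Hippo pathway genes differed between ash2-112411 and ash1-22. Reversed on that scale were ash2-I1 minus ash1-22 for *hpo* (0.15) and *mats* (0.13) and ash2-112411 minus ash1-22 for *yki* (0.097) and *Mer* (0.083). With arrays centred on the median *Mer* in that contrast was 0.014. Centring extractions on the median of the tested probes, chosen after seeing the data, moved none of the counts by over 1.5 times. With only probes on all 4 arrays, 2 Hippo pathway genes differed between ash2-112411 and ash1-22. With the probes of a gene averaged *Trl* was 0.018 in ash2-112411.

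With the mutant in Cy5 only, 1 list gene was called lower in ash1-22 and 0 Hippo pathway genes differed between ash2-I1 and either other allele. *sav* in ash1-22 (0.0082), *ex* in ash2-I1 (0.18) and *Mob4* in ash2-I1 (0.039) reversed. With Cy3 only, 1 Hippo pathway gene was called lower in ash2-I1, 1 Hippo pathway gene and 1 list gene higher in ash2-112411, and 3 Hippo pathway genes differed between ash2-112411 and ash1-22. Reversed there were ash2-I1 minus ash1-22 for *hpo* (0.093), *mats* (0.078) and *yki* (−0.018), *Trl* in ash2-112411 (0.22) and *shg* in ash2-I1 (0.057).

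At the adjusted p alone the lower and higher counts in ash2-I1 were 3 and 0 of 7 Hippo pathway genes and 17 and 2 of 37 list genes. The shares of all genes there were 19.8% and 17.9%. In ash2-112411 the counts were 4 and 1 of 6 and 23 and 1 of 40 (26.3% and 24.0% of all genes). In ash1-22 they were 1 and 0 of 7 and 7 and 1 of 37 (6.51% and 4.86%). Leaving out an extraction, with the lone extraction assumed to vary like the others, gave 1 to 2 Hippo pathway genes lower and 0 to 1 higher in ash2-112411, 0 to 1 list genes higher in ash2-112411 and 0 to 2 in ash2-I1. It gave 1 to 3 differences for ash2-I1 minus ash2-112411, 0 to 1 for ash2-I1 minus ash1-22 and 0 to 2 for ash2-112411 minus ash1-22. Differences that changed sign were ash2-I1 minus ash1-22 for *hpo* (−0.11 to 0.074), *mats* (−0.14 to 0.096), *yki* (−0.067 to 0.21) and *Mer* (−0.0037 to 0.21), and ash2-112411 minus ash1-22 for *Mer* (−0.033 to 0.0010). Ratios that did so were *wts* (−0.041 to 0.23), *Mer* (−0.15 to 0.064) and *l(2)gl* (−0.22 to 0.025) in ash2-I1, and *ed* (−0.20 to 0.011) and *l(2)gl* (−0.20 to 0.029) in ash1-22. The cause was not tested.

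Extraction numbers did not pair the samples (correlations of deviations 0.10, −0.044 and −0.16). With the replicate block 3, 1 and 1 Hippo pathway genes differed, as without it, and *hpo* differed by 0.41 between ash2-I1 and ash2-112411. The number of arrays limits the precision.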
